A study of Homo sapiens with 8 samples.

Results

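A set of 10 genes of the proteasome, the protease that cuts cellular proteins into peptides, were followed in K562 cells after repression of the transcription factor IRF2. These were taken by name from the 35805 genes listed in the deposited table, and all 10 were found. PSMB8, PSMB9, PSMB10, PSME1 and PSME2 are inducible by interferon. PSMB5, PSMB6, PSMB7, PSME3 and PSME4 served as their constitutive counterparts.

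K562 is an erythroid-like line derived from a patient with chronic myeloid leukaemia. All cells, controls included, carried dCas9-KRAB, a Cas9 without cutting activity fused to a domain that silences the promoter to which a guide RNA brings it. The 8 RNA-seq libraries form 4 groups of 2: cells left untransduced, cells that received sgAAVS1 (a guide to the AAVS1 locus, used as the negative control), and cells that received 1 of the IRF2 guides, sg1-IRF2 or sg2-IRF2. Cells with a guide were harvested 7 days after transduction. The labels name no interferon treatment, and leave unstated whether the cells were a single clone and whether replicate libraries stem from different cultures.

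The core of the proteasome, the 20S particle, carries its proteolytic sites on the subunits PSMB5, PSMB6 and PSMB7. Interferon induces PSMB8, PSMB9 and PSMB10, which replace PSMB5, PSMB6 and PSMB7 in newly assembled particles, and the resulting immunoproteasome yields more peptides of the kind that MHC class I molecules bind. Activator rings open the particle at its ends: PSME1 and PSME2 together form the PA28 alpha-beta ring, PSME3 forms the nuclear PA28 gamma ring, and PSME4 (PA200) is a single large chain. IRF2 binds the interferon-type elements of promoters that IRF1 and other members of its family also bind.

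Reads were recovered from the deposited log2 values, and each library held 5248359 to 6738348 reads over the listed genes. IRF2 itself was represented by 271 and 268 reads in the untransduced libraries, 196 and 291 in the sgAAVS1 libraries, 4 and 8 under sg1-IRF2 and 22 and 21 under sg2-IRF2. Its log2 difference between both guides and sgAAVS1 was -4.51 ± 0.18 (standard error of the limma fit, adjusted p = 2.5e-16). All 11 erythroid marker genes checked had reads in all 8 libraries, with a summed level of 1080 to 1215 RPM (reads scaled by library size). It was 41.1 to 46.5 for 5 lymphoid, 137 to 149 for 5 monocyte and 579 to 640 for 6 adherent-line markers. The lists differ in size, so these sums do not rank cell types. The adherent-line genes KRT8 (11685 reads over all 8 libraries) and VIM (12364) had more reads than any erythroid marker except TFRC (19489). Of the adherent-line list, COL1A1 was called lower with both guides against sgAAVS1 (-0.32 ± 0.08, limma adjusted p = 0.0327). COL1A2 was called lower against untransduced cells (-0.86 ± 0.16, adjusted p = 0.0013). Of the erythroid list, ALAS2 was called higher against untransduced cells (0.31 ± 0.06, limma adjusted p = 0.0014). Between sgAAVS1 and untransduced cells, 2 erythroid genes were called higher and 1 monocyte gene lower. The part of these differences in the results below was not tested. Chi-square per gene between the replicates of a group was 0.828 for the untransduced pair, 1.64 for sgAAVS1, 0.788 for sg1-IRF2 and 0.671 for sg2-IRF2. Counting noise alone would give about 1. The spread that enters the tests is therefore a spread between libraries, which may be technical.

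RefSeq promoter windows, from 250 bases before to 50 bases after a transcription start (GRCh38.p14), were matched for 8 of the 10 genes, PSMB6 and PSMB7 being the others. The motif GAAANNGAAA, a pair of GAAA half-sites of the kind that IRF proteins bind, was searched on both strands. It was found in PSMB8 (at 1 of its 2 starts), PSMB10, PSME1 and PSME2, not in the PSMB9 window, and in 0 of the 3 matched constitutive genes (PSMB5, PSME3 and PSME4). Of all 35116 windows 3.57% held it. The stretches below are shown because the 4 members with a match share the same core of 10 bases. Holding it and being called lower did not coincide in every member, since PSME2 holds it and did not pass. TAP1 and TAP2, the peptide transporter genes beside PSMB9 and PSMB8, are added. Each is written 5′ to 3′ on the strand of its gene, and capitals mark the match or, where it lies on the opposite strand, its reverse complement.
PSMB8, chr6:32844032-32844061, minus strand: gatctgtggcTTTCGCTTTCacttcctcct
PSMB10, chr16:67936852-67936881, minus strand: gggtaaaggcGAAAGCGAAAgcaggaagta
PSME1, chr14:24136189-24136218, plus strand: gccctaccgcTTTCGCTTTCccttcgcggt
PSME2, chr14:24146619-24146648, minus strand: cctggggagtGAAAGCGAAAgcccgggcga
TAP1, chr6:32853816-32853845, minus strand: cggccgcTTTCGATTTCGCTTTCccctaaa
TAP2, chr6:32838778-32838807, minus strand: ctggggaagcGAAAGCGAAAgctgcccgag

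The core GAAAGCGAAA, read on either strand, is common to all 6 stretches. It was present in 35 of the 35116 windows (0.0997%), and was singled out after these sequences had been seen. Counted from the start, with the first transcribed base as 1, the match lay at -4 to 6 in PSMB8, -21 to -12 in PSMB10, 6 to 15 in PSME1 and -28 to -19 in PSME2. TAP2 held it at -58 to -49, and TAP1 held a pair of overlapping matches at -134 to -125 and -128 to -119. In GENCODE release 29 each stretch overlaps an exon of its own gene that carries untranslated sequence. The TAP1 stretch also lies in an intron of PSMB9, 347 to 376 bases before the RefSeq start of that gene.

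**Figure D1:**
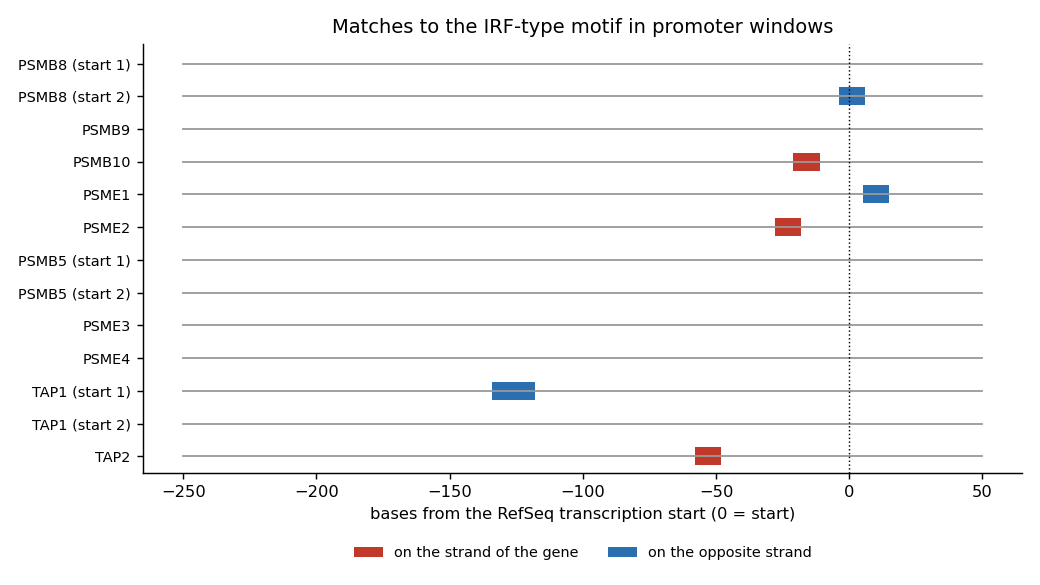
Matches to GAAANNGAAA in the RefSeq promoter windows of the 8 matched proteasome genes and of TAP1 and TAP2. The x axis gives bases from the transcription start, grey lines are the windows searched, and blocks are matches on the strand of the gene (red) or the opposite strand (blue). PSMB8, PSMB10, PSME1 and PSME2 hold 1 match each near the start, and PSMB9, PSMB5, PSME3 and PSME4 hold 0.

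Scaled by exonic length, the constitutive catalytic genes and PSME4 had the highest levels in untransduced cells. In untransduced cells, the level in RPKM (reads scaled by exonic length and library size) was 40.2 ± 2.72 (SD, n = 2) for PSMB5, 39.0 ± 0.302 for PSMB7, 28.7 ± 0.0218 for PSME4 and 25.6 ± 1.03 for PSMB6. It was 20.7 ± 1.34 for PSME1, 19.3 ± 0.594 for PSME3, 11.8 ± 0.824 for PSMB10 and 11.6 ± 0.460 for PSME2. PSMB8 (0.608 ± 0.261) and PSMB9 (0.103 ± 0.0731) were far below. Neighbours in this order whose libraries overlapped were PSMB5 with PSMB7 and PSMB10 with PSME2. With sgAAVS1, PSME3 (21.4 ± 0.220) lay above PSME1 (20.5 ± 1.96), the reverse of their order in untransduced cells. These levels use GENCODE exon lengths, with the exons of all transcripts of a gene merged, and their order rests on those lengths. In reads over the 2 untransduced libraries, PSME3 (1255) lay above PSMB5 (896). PSME2 (526) lay above PSMB6 (468) and PSME1 (466). The annotation that the submitters counted on is not given in the sources used here.

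Among the inducible genes, PSME1 and PSMB10 fell with the IRF2 guides, PSMB8 had reads in the control libraries only, PSME2 did not pass the test and PSMB9 was near the detection limit. The constitutive genes did not pass against either control. In bulk RNA, fewer expressing cells and less RNA per cell cannot be told apart. Of the 8 genes with enough signal to be tested (a mean deposited log2 value of at least 0), 2 fell against sgAAVS1 at an adjusted p under 0.05, PSME1 and PSMB10, and 0 rose. Of all 14665 tested genes 1.1% were called lower and 0.491% higher in that comparison. Against untransduced cells PSME1 and PSMB10 were again the 2 genes that fell, where 1.51% of tested genes were called lower and 0.982% higher, and 0 rose. PSMB8 and PSMB9 did not reach the minimum level and are described by their reads. The comparisons with sgAAVS1 and with untransduced cells share the guide libraries, and those of each guide with sgAAVS1 share the control libraries.

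PSMB8 (ENSG00000204264.9, hg38 chromosome 6, 32840717 to 32844703, minus strand) encodes the inducible subunit that takes the place of PSMB5. It had 8 and 15 reads in the untransduced libraries, 10 and 7 in the sgAAVS1 libraries, 0 and 0 under sg1-IRF2 and 0 and 0 under sg2-IRF2. Every control library held reads of it and no guide library did. The 40 control reads have a 95% Poisson interval of 28.6 to 54.5, covering counting error only. The upper limit of a count of 0 was set at 3 reads over the 4 guide libraries. This is a fixed value, below the two-sided 95% Poisson limit of a count of 0, at which the folds would be smaller. At that limit and the observed control reads, PSMB8 was 13.4-fold lower with the guides. It was 11.7-fold lower against sgAAVS1 alone and 15.01-fold lower against untransduced cells. These folds leave out the counting error of the control reads, so they are not lower bounds. An exact two-sided permutation test of the deposited values of 4 guide against 4 control libraries gave p = 0.0286, the smallest it can give. Of the 2335 listed genes with 20 to 80 reads over the controls, 3 had 0 reads in all guide libraries (0.128%): PSMB8, APOL3 and GIMAP2.

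PSMB9 (ENSG00000240065.7, chromosome 6, 32844136 to 32859585, plus strand), the inducible counterpart of PSMB6, was close to the limit of detection. It had 3 and 1 reads in untransduced cells, 3 and 3 with sgAAVS1, and 0 in each of the 4 guide libraries. The 10 control reads (95% interval 4.80 to 18.4) put it 3.35-fold lower with the guides at the same limit. That fold again leaves out the counting error of the control reads. The exact permutation test gave p = 0.0571, because the value assigned to 0 reads in sg1-IRF2 replicate 1, the shallowest guide library, lay above that of the untransduced library with 1 read. Of the 2260 listed genes with 5 to 20 control reads, 1.42% also had 0 reads in all guide libraries. PSMB8 and PSMB9 share 139 exonic bases on opposite strands, 4.64% and 4.52% of their exons. The use of strand in counting is not given in the sources used here.

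PSMB10 (ENSG00000205220.11, chromosome 16, 67934502 to 67937087, minus strand), which takes the place of PSMB7, was expressed in all groups. It had 131 and 145 reads in the untransduced libraries, 119 and 140 in the sgAAVS1 libraries, 74 and 108 under sg1-IRF2 and 98 and 84 under sg2-IRF2. On the deposited log2 scale the controls spanned 4.53 to 4.72 and the guide libraries 3.91 to 4.33, without overlap. The difference between both guides and sgAAVS1 was -0.59 ± 0.12 (95% interval -0.83 to -0.35), or 66.4% of the sgAAVS1 level, with a limma adjusted p of 0.0040. Against untransduced cells it was -0.57 ± 0.12 (adjusted p = 0.0047). That second call was lost without untransduced replicate 1 (adjusted p = 0.0564) or replicate 2 (adjusted p = 0.251), and both calls were lost when the mean-variance trend was left out (adjusted p = 0.268 against sgAAVS1 and 0.223 against untransduced cells).

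PSMB10 shares 644 exonic bases, 34.8% of its exons, with the GENCODE gene AC040162.1 on the same strand, so its reads are not assigned with certainty. The table lists another gene over PSMB10, CTC-479C5.12, with 124 and 141 reads in the untransduced libraries, 108 and 140 in the sgAAVS1 libraries, 95 and 119 under sg1-IRF2 and 124 and 103 under sg2-IRF2. Its difference between both guides and sgAAVS1 was -0.24 ± 0.11 (limma adjusted p = 0.399). Whether CTC-479C5.12 and AC040162.1 are the same gene is not settled by the files.

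The constitutive catalytic subunits PSMB5, PSMB6 and PSMB7 showed no difference past the threshold. Deposited log2 values lay between 6.20 and 6.44 in the control libraries and between 6.17 and 6.39 in the guide libraries for PSMB5. They lay between 5.33 and 5.48 against 5.31 and 5.48 for PSMB6, and between 6.25 and 6.44 against 6.26 and 6.35 for PSMB7. The ranges overlapped for all 3 genes. Of the 5 constitutive genes 0 had an unadjusted p under 0.05 against sgAAVS1, and voom called 0. Against sgAAVS1 the differences were -0.05 ± 0.07 for PSMB5 (95% interval -0.18 to 0.09), -0.04 ± 0.07 for PSMB6 (-0.19 to 0.11) and -0.04 ± 0.06 for PSMB7 (-0.16 to 0.08), with limma adjusted p from 0.881 to 0.922. The lower bound for each of the 3 lies above the fitted difference of PSMB10 and of PSME1.

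**Figure D2:**
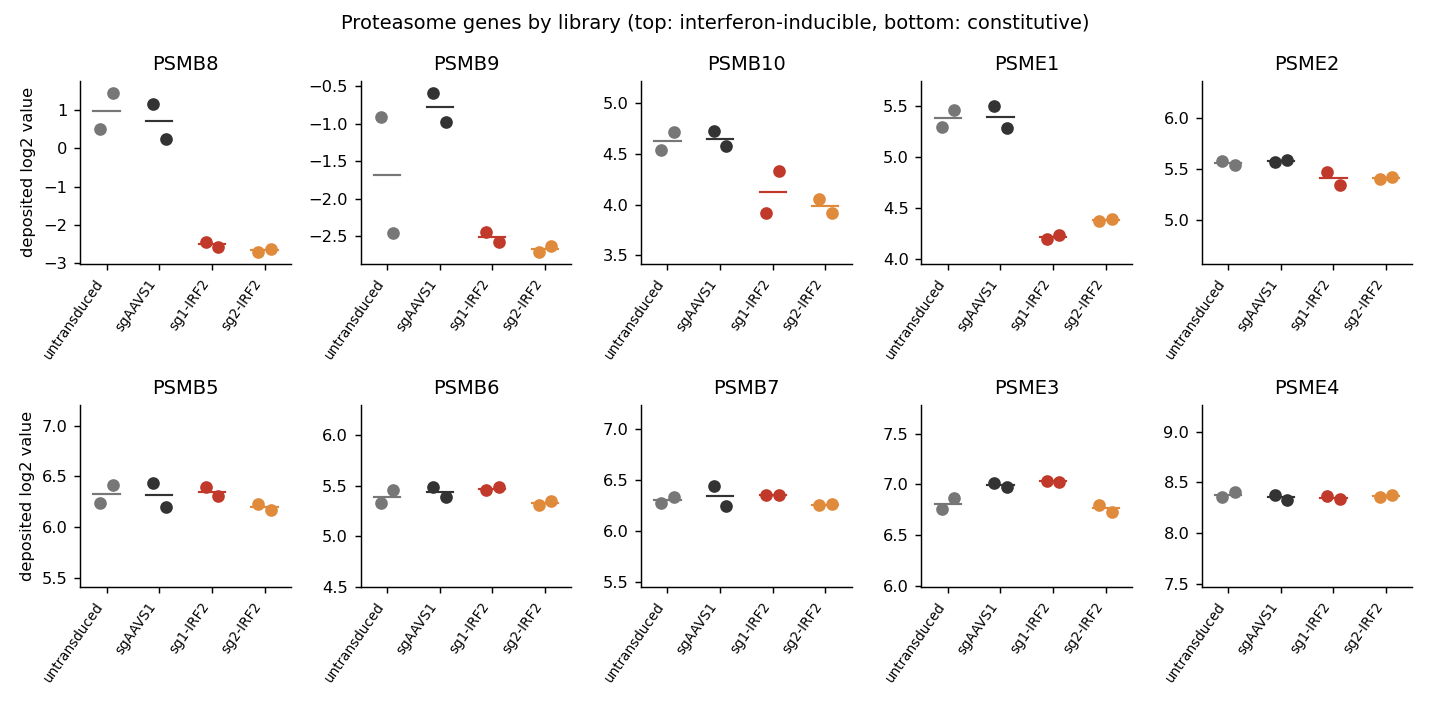
Deposited log2 values of the 10 proteasome genes in each library (points, 2 per group) with the group mean (line). The y axes differ in position, and those of PSMB8 and PSMB9 also in span. The lowest values of PSMB8 and PSMB9, between -2.71 and -2.45, stand for 0 reads, except that of PSMB9 in an untransduced library (-2.46), which had 1 read. PSMB8, PSMB10, PSME1 and PSME2 show all 4 guide libraries below all 4 control libraries.

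PSME1 (ENSG00000092010.14, chromosome 14, 24136158 to 24138967, plus strand), the alpha subunit of the PA28 ring, had the largest difference among the 8 tested genes. It had 222 and 244 reads in the untransduced libraries, 205 and 230 in the sgAAVS1 libraries, 90 and 101 under sg1-IRF2 and 122 and 117 under sg2-IRF2. The deposited values spanned 5.29 to 5.51 in the controls and 4.20 to 4.40 with the guides, a gap wider than the range of either set. PSME1 fell to 46.7% of its sgAAVS1 level, a log2 difference of -1.10 ± 0.09 (95% interval -1.28 to -0.91, limma adjusted p = 1.4e-09). Against untransduced cells the difference was -1.08 ± 0.09 (adjusted p = 3.1e-09). The call against sgAAVS1 held in 17 of 17 alternative settings, with differences from -1.21 to -0.99.

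PSME2 (ENSG00000100911.15, chromosome 14, 24143362 to 24147570, minus strand), the beta subunit of the same ring, is a near neighbour of PSME1. It had 270 and 256 reads in the untransduced libraries, 214 and 283 in the sgAAVS1 libraries, 218 and 218 under sg1-IRF2 and 248 and 238 under sg2-IRF2. Its deposited values were 5.54 to 5.59 in the controls and 5.35 to 5.47 with the guides. The libraries did not overlap, and the exact permutation p of 0.0286, not adjusted over genes, is the smallest that 4 against 4 can give. The difference from sgAAVS1 was -0.17 ± 0.07 (95% interval -0.31 to -0.03), which did not pass over all genes (limma adjusted p = 0.338), nor did it against untransduced cells (-0.15 ± 0.07, adjusted p = 0.331). PSME2 shares 216 exonic bases with RNF31 on the opposite strand, whose difference was 0.10 ± 0.06 (adjusted p = 0.592).

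Among the other activators, PSME4 had 1495 to 1891 reads in the controls and 1615 to 1926 with the guides. Its difference from sgAAVS1 was 0.01 ± 0.04 (95% interval -0.07 to 0.08, limma adjusted p = 0.972). PSME3 had 613 and 642 reads in the untransduced libraries, 584 and 739 in the sgAAVS1 libraries, 646 and 696 under sg1-IRF2 and 654 and 591 under sg2-IRF2. Its deposited values were 6.97 to 7.04 in the sgAAVS1 and sg1-IRF2 libraries and 6.73 to 6.87 in the untransduced and sg2-IRF2 libraries, so the order did not follow the IRF2 guides. Both guides differed from sgAAVS1 by -0.10 ± 0.05 (adjusted p = 0.488) and from untransduced cells by 0.08 ± 0.05 (adjusted p = 0.468).

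Counted over all 10 genes, all 4 guide libraries lay below all 4 control libraries in 4 of the 5 inducible genes (PSMB8, PSMB10, PSME1 and PSME2). The same held for 0 of the 5 constitutive genes, and 0 of those lay above. Of all tested genes 1.79% had this separation downward and 0.948% upward. PSMB8 is not among the tested genes. The read-matched share given above is for a different condition, 0 reads in all guide libraries, and includes PSMB8 itself. A share of separated genes at its read level is not given. Exact permutation p for the constitutive genes ran from 0.514 for PSMB5 to 0.943 for PSME3.

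Ratios within a library compare each inducible gene with its counterpart without any scaling between libraries, and 5 were tested by exact two-sided permutation of 4 guide against 4 control libraries. For every 100 reads of PSMB7 there were 29.98 to 32.7 reads of PSMB10 in the control libraries and 18.4 to 24.7 in the guide libraries, a log2 difference of -0.57 (exact p = 0.0286, adjusted over the 5 ratios 0.0476). For every 100 reads of PSME3 there were 31.1 to 38.0 reads of PSME1 in the controls and 13.9 to 19.8 with the guides, a difference of -1.08 (exact p = 0.0286, adjusted 0.0476). For every 100 reads of PSMB5 there were 1.62 to 3.19 reads of PSMB8 in the controls and 0 with the guides (exact p = 0.0286, adjusted 0.0476). The groups did not overlap in these 3 ratios. Their p-values do not account for the arrangement of the libraries in 4 groups of 2.

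The other ratios did not pass. PSMB9 per 100 reads of PSMB6 was 0.415 to 1.49 in the controls and 0 with the guides (exact p = 0.0571, adjusted 0.0714). PSME2 per 100 reads of PSME3 was 36.6 to 44.0 in the controls and 31.3 to 40.3 with the guides, with overlap and a difference of -0.15 (exact p = 0.229, adjusted 0.229). The ratios over PSME3 also carry the spread of PSME3 itself between groups.

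**Figure D3:**
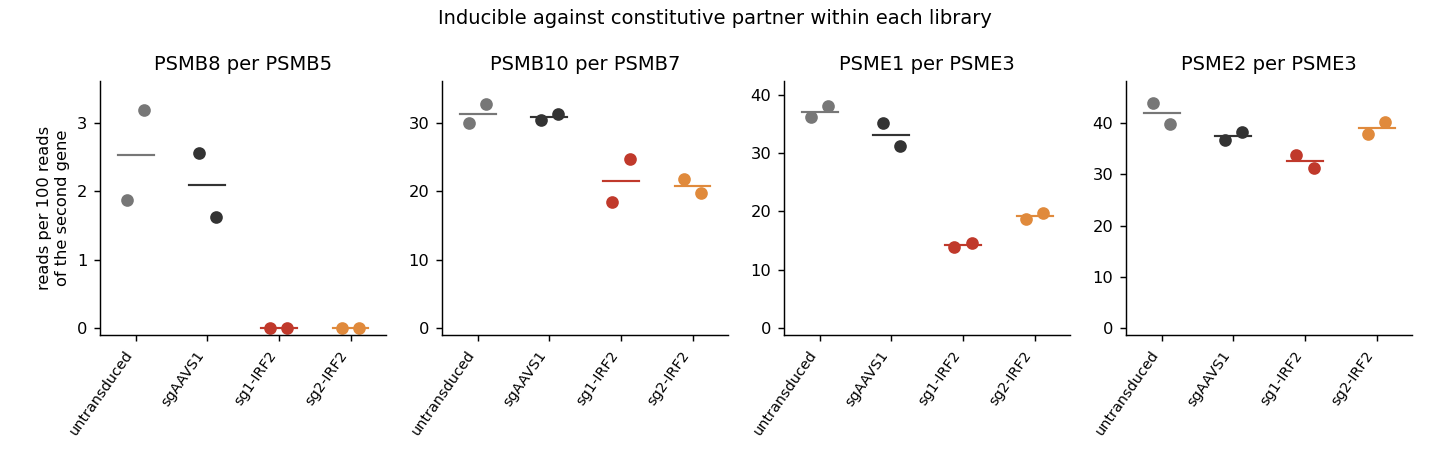
Reads of an inducible gene per 100 reads of its constitutive counterpart in each library (points, 2 per group) with the group mean (line). PSMB10 per PSMB7 fell from 29.98 to 32.7 in controls to 18.4 to 24.7 with the guides, and PSME1 per PSME3 from 31.1 to 38.0 to 13.9 to 19.8, while PSME2 per PSME3 overlapped.

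The 2 subunits of the PA28 ring thus differed in response. For every 100 reads of PSME2 there were 81.3 to 95.8 reads of PSME1 in the control libraries and 41.3 to 49.2 in the guide libraries. The difference was -0.93 on the log2 scale, a 1.91-fold lower ratio (exact permutation p = 0.0286, n = 4 and 4, a comparison added after the values had been seen). In RPKM, PSME1 exceeded PSME2 in untransduced cells (20.7 ± 1.34 against 11.6 ± 0.460) and with sgAAVS1 (20.5 ± 1.96 against 11.6 ± 0.242). With sg1-IRF2 PSME1 was at 8.83 ± 0.0549 and PSME2 at 10.1 ± 0.756, and with sg2-IRF2 they were at 10.7 ± 0.0663 and 10.8 ± 0.0723. In RPKM, PSME1 thus lay above PSME2 in the control groups and at or just below it in the guide groups. That order rests on exonic lengths of 1781 bases for PSME1 and 3582 for PSME2, which the submitters may not have used. In reads, PSME1 lay below PSME2 in every library, controls included. The fall of the ratio does not depend on these lengths.

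Each guide was also set against sgAAVS1 alone. With sg1-IRF2, 1 tested member fell, PSME1 (-1.18 ± 0.10, limma adjusted p = 6.8e-09), where 0.498% of tested genes were called lower. PSMB10 differed by -0.52 ± 0.14 (adjusted p = 0.0705) and missed the threshold, although it passed with library medians aligned, with quantile normalization, and without sgAAVS1 replicate 2 or sg1-IRF2 replicate 2. With sg2-IRF2, 3 fell against a background of 7.11%: PSME1 (-1.01 ± 0.10, adjusted p = 1.8e-07), PSMB10 (-0.66 ± 0.14, adjusted p = 0.0032) and PSME3 (-0.23 ± 0.06, adjusted p = 0.0112). The median difference of all tested genes from sgAAVS1 was -0.07 with sg2-IRF2 and 0.04 with sg1-IRF2. Without sg2-IRF2 replicate 2, PSME1 alone was called, and without sgAAVS1 replicate 2, PSMB5 was called as well. PSME3 was not called without either sg2-IRF2 library, nor with medians aligned, quantile normalization or voom.

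The guides did not differ past the threshold in PSME1 (sg1-IRF2 minus sg2-IRF2 -0.17 ± 0.10, 95% interval -0.39 to 0.04, limma adjusted p = 0.266) or PSMB10 (0.13 ± 0.14, -0.14 to 0.41, adjusted p = 0.511). PSME2 differed by 0.00 ± 0.08 (-0.17 to 0.16, adjusted p = 0.994). PSME3 was higher with sg1-IRF2, by 0.26 ± 0.06 (adjusted p = 0.0039). In that comparison 12.7% of tested genes were called higher and the median of all tested genes was 0.11. The call of 1 member among 8 is near that share, and it was lost with medians aligned, quantile normalization, voom or no trend, and without replicate 2 of either guide. Between sgAAVS1 and untransduced cells 0 of the 8 were called (4.75% of tested genes were, in either direction). PSME3 had the smallest unadjusted p there (0.18 ± 0.06, limma adjusted p = 0.0584), it was the only member with an unadjusted p under 0.05, and voom called 0.

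**Figure D4:**
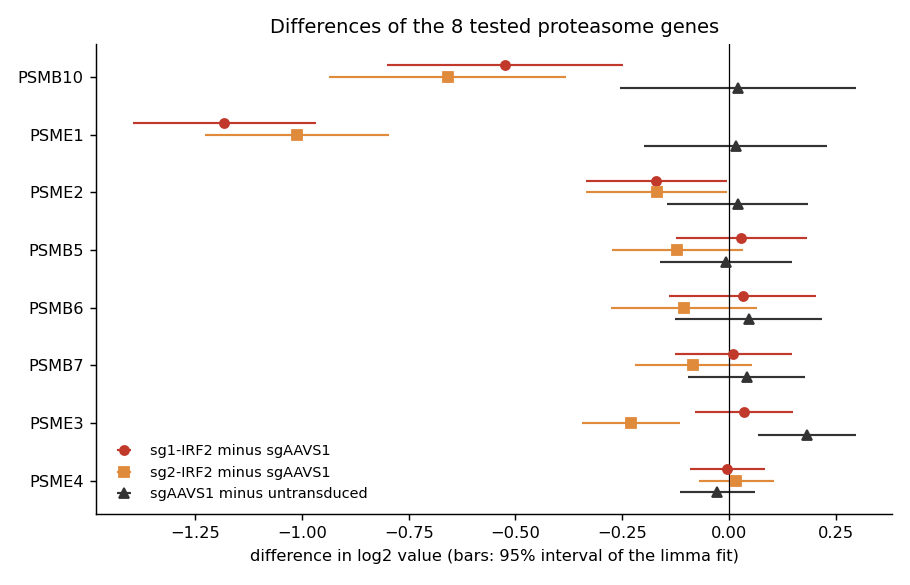
Log2 differences of the 8 tested proteasome genes with 95% intervals of the limma fit, for each IRF2 guide against sgAAVS1 and for sgAAVS1 against untransduced cells. PSME1 (-1.18 and -1.01) and PSMB10 (-0.52 and -0.66) lie left of 0 with both guides and near 0 (0.02 each) between the controls, while PSME3 differs with sg2-IRF2 (-0.23) and between the controls (0.18).

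With both guides in 1 group, none of the other proteasome genes tested passed against either control. Of 49 other genes, 47 were tested (PSMA8 and PSMB11 had 0 reads), made up of 11 structural 20S subunits, 19 of the 19S regulatory particle, and 17 assembly factors and regulators. Against sgAAVS1 0 were called by limma and 0 by voom, and 2 had an unadjusted p under 0.05: PSMD12, a lid subunit (-0.10 ± 0.04, adjusted p = 0.358), and DDI2, the protease that activates NFE2L1 (-0.10 ± 0.04, adjusted p = 0.261). Their median difference was -0.03, against -0.02 over all tested genes, and the whole range ran from -0.10 in PSMD12 to 0.05 in PSMD6. Against untransduced cells 0 were called by either tool, 1 had an unadjusted p under 0.05 (PSMD1, 0.10 ± 0.04, adjusted p = 0.332), and the differences ran from -0.07 in PSMC6 to 0.10 in PSMA2. A count of 0 among 47 is near the shares over all tested genes (1.1% lower and 0.491% higher against sgAAVS1). With sg2-IRF2 alone, 2 of the 47 were called lower than sgAAVS1 (PSMD12 and DDI2, where 7.11% of all tested genes were lower), and 12 had an unadjusted p under 0.05. Between the guides 6 were called higher with sg1-IRF2, where 12.7% of all tested genes were, and voom called 0 in both comparisons. POMP, the chaperone for assembly of the core particle, differed from sgAAVS1 by -0.06 ± 0.08 (adjusted p = 0.866).

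Genes that carry peptides from the proteasome to MHC class I, or form and load that complex, were called in part. Of 15 listed genes 11 were tested, and 6 were lower and 0 higher both against sgAAVS1 and against untransduced cells, where 1.1% and 1.51% of all tested genes were lower. The medians were -0.41 and -0.28, against -0.02 and 0.01 over all tested genes. The 5 not called were B2M, CALR, CANX, PDIA3 and HLA-E. Of the 6 called, ERAP2 and HLA-C passed the filter through their control libraries only. TAP1 and TAP2 form the transporter that brings peptides into the endoplasmic reticulum. TAP1, which lies within the span of PSMB9 on the opposite strand, had 53 and 59 reads in the untransduced libraries, 52 and 76 in the sgAAVS1 libraries, 6 and 6 under sg1-IRF2 and 10 and 6 under sg2-IRF2. Its difference from sgAAVS1 was -3.28 ± 0.26 (limma adjusted p = 5.3e-10), and that of TAP2, the gene next to PSMB8, was -2.19 ± 0.09 (adjusted p = 5.8e-16). Against untransduced cells the differences were smaller, -2.99 ± 0.26 for TAP1 and -1.77 ± 0.09 for TAP2. TAP2 differed between the controls, with a mean log2 value of 6.01 with sgAAVS1 and 5.59 in untransduced cells. In that comparison 1 gene of the list was called higher, and the largest difference was 0.42, that of TAP2.

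Other called genes of the list were the peptide-trimming enzymes ERAP1 (-1.43 ± 0.07, limma adjusted p = 6.5e-15) and ERAP2 (-3.70 ± 0.28, adjusted p = 1.7e-10), HLA-C (-2.38 ± 0.45, adjusted p = 0.0025) and the loading factor TAPBP (-0.41 ± 0.04, adjusted p = 7.3e-08). HLA genes resemble each other, so HLA-C reads may include those of its relatives. Over all 8 libraries ERAP2 had 271 reads and HLA-C 103, with mean log2 values of 1.68 and 0.67. Given their differences, the mean of the guide libraries lay below the filter value of 0 for both. They passed the filter through the control libraries, and the size of their differences is uncertain. The highest difference of the list, in B2M, which encodes the invariant chain of MHC class I, was 0.03 ± 0.06 (adjusted p = 0.901). The fitted differences of PSME1 (-1.10) and PSMB10 (-0.59) were closer to 0 than those of TAP1, TAP2, ERAP1 and ERAP2, without a test of that contrast.

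IRF1, an activator of immunoproteasome genes, had 162 and 164 reads in the untransduced libraries, 132 and 165 in the sgAAVS1 libraries, 142 and 152 under sg1-IRF2 and 148 and 140 under sg2-IRF2. Its difference from sgAAVS1 was -0.09 ± 0.09 (limma adjusted p = 0.787), which did not pass the threshold. The part of IRF1 in the differences of PSME1 and PSMB10 was not tested.

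**Figure D5:**
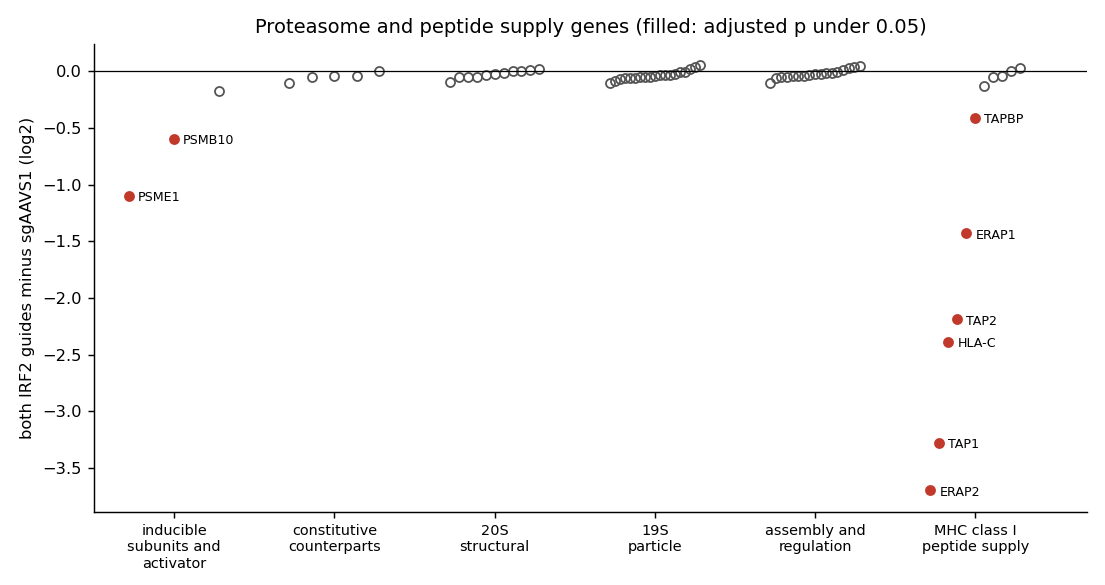
Log2 differences between both IRF2 guides and sgAAVS1 for the tested genes of the proteasome and of MHC class I peptide supply (y axis), each point 1 gene, filled where the limma adjusted p was under 0.05. PSME1 (-1.10) and PSMB10 (-0.59) stand apart from the 47 other proteasome genes, which span -0.10 to 0.05, and 6 of 11 peptide supply genes are filled.

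The promoter matches can be set beside the calls as a description. Of the 371 tested genes with GAAANNGAAA in a RefSeq window, 31 were called lower against sgAAVS1 (8.36%) and 2 higher. Without the genes of the printed stretches it was 27 of 366 (7.38%). Of the 9250 tested genes with a window but no match, 86 were lower (0.93%). Of the 21 tested genes with GAAAGCGAAA, 7 were lower (33.3%) and 0 higher: TAP1, TAP2, FAM111A, PARP14, PSME1, PSMB10 and TNFRSF1B. That share is partly fixed by the choice of the core, which was read from the members. Without the genes of the printed stretches, 3 of 16 were lower (18.8%). PSME2 carries the same 10 bases and, at -0.17, was not among them, and neither was its neighbour RNF31 (0.10). PSMB8 carries them too but was below the level for testing.

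The profiles most like those of the members that fell were taken from 12492 other genes, by root mean square distance between mean-centred log2 values over the 8 libraries. Nearest to PSME1 were IL17RC (distance 0.127, Pearson r = 0.978), PARP12 (0.136, r = 0.990) and EIF2AK2 (0.157, r = 0.963). Nearest to PSMB10 were AKAP12 (0.0884, r = 0.961), ZNF814 (0.0930, r = 0.958) and ZNF304 (0.109, r = 0.941). The correlations are descriptive, since all genes share the same libraries.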

How the data were processed

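RNA-seq libraries of K562 cells were analysed from 1 deposited table. Per the labels, total RNA was DNase-treated, depleted of ribosomal RNA and made into directional libraries, and Bowtie2, cutadapt and the hg38 build are listed in the submitters' processing notes. Which tool versions, strand setting and annotation went into counting is not given in the sources used here. Values in the table are deposited log2 values, that is, gene-level reads over a factor common to all genes of a library. Genes without reads stand at the value of 0.9 read. Linear values were whole multiples of 1 read (tolerance 0.01) for 100% of the values, which gave reads and depth.

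Group means of the log2 values were fitted to all 8 libraries with limma 3.58.1 in R 4.3.3 (moderated test with a mean-variance trend, two-sided). The 14665 genes with a mean log2 value of at least 0 were tested, with Benjamini-Hochberg adjustment over all of them and calls at an adjusted p under 0.05. Errors of differences are standard errors of that fit, and errors of levels are SDs of 2 libraries. Single values and ratios were tested by exact permutation over all 70 splits of 4 guide and 4 control libraries. The tests of single values and the count of separated members were not part of the plan, and those p-values were not adjusted. These p-values take the 8 libraries as exchangeable and do not account for their arrangement in 4 groups of 2. They may therefore be too small. Every library counted as 1 replicate, and shared replicate numbers were not treated as pairs. The fit was tested on simulated data.

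All 10 members were named. For other lists, up to 4 called genes with the lowest p, the extremes, TAP1, TAP2 and IRF1 were named, along with the 3 nearest profiles of each member called against both controls. HLA-C, TAPBP, PSMD1, POMP and the genes counted with promoter motifs or 0 reads were named after their values were seen. Members, lists and the motif were chosen with earlier results of these data known. Alternatives changed the filter, scaling, trend, samples fitted, test (voom) and replicate block, and left out each library. A further gene that the rule would name is not reported here.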

Additional observations from a re-analysis of the deposited data

Results flagged for a closer look

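PSME3, the PA28 gamma activator, was the 1 member of 8 that passed a test of the difference between the IRF2 guides. It was 0.26 ± 0.06 higher on the log2 scale with sg1-IRF2 than with sg2-IRF2 (95% interval 0.15 to 0.38, limma adjusted p = 0.0039), and both sg1-IRF2 libraries (7.04 and 7.02) lay above both sg2-IRF2 libraries (6.80 and 6.73). In the same comparison 12.7% of all tested genes were called higher and their median difference was 0.11, so 1 of 8 is near the share over all genes. With medians aligned, quantile normalization, voom or no trend, and without replicate 2 of either guide, 0 members were called.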

How the results depend on the processing

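Against sgAAVS1, where 2 members were called, 4 were called when all listed genes were fitted (PSMB8 and PSMB9 were added, with a size set by the value given to 0 reads), 1 without the mean-variance trend, and 2 without any 1 library. Against untransduced cells (2 called) it was 1 without the trend and 1 to 2 without 1 library. For sg1-IRF2 against sgAAVS1 (1 called) it was 4 with all listed genes, 2 with medians aligned, 2 with quantile normalization and 1 to 2 without 1 library. For sg2-IRF2 (3 called) it was 5 with all listed genes, 1 without the trend and 1 to 4 without 1 library. Between the guides (1 called) it was 0 with medians aligned, quantile normalization, voom or no trend, 2 with only those groups fitted, and 0 to 1 without 1 library (0 without replicate 2 of either guide). Between the controls (0 called) it was 1, PSME3, at a mean log2 of at least 2, and 0 to 1 without 1 library (1 without sgAAVS1 replicate 2). The ratio of PSMB9 to PSMB6 passed on log2 of reads plus 1 (-1.75, adjusted p = 0.0357). The causes were not tested. The other 134 values that answer a comparison kept their direction, with counts within 1.5 times and ratios on the same side of the threshold or, where too few libraries remained for a test, within 1 SD. Calls over all genes ran from 60 to 636 against sgAAVS1 (233 in the reported fit) and from 54 to 835 against untransduced cells (366).

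With the replicate number as a block, the members called were 2, 2, 1, 3, 1 and 0 in the same order, so no member's call changed. The ratio tests within blocks could not pass (adjusted p = 0.0694 for PSMB10 over PSMB7). Deviations of same-numbered libraries over 12500 genes correlated at 0.216 between sgAAVS1 and sg1-IRF2 and at -0.0794 to 0.0244 between the other groups. The numbers were not taken as pairs. Whether same-numbered sgAAVS1 and sg1-IRF2 libraries share a batch was not tested. Depth limits PSMB8 and PSMB9, and the ratio tests reach 0.0286 at best.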
